A study of Mus musculus with 12 samples.

Results

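The genes described here encode the 10 enzymes that lead from farnesyl diphosphate through squalene and lanosterol to cholesterol. They were chosen by symbol in the array annotation (Fdft1, Sqle, Lss, Cyp51, Msmo1, Nsdhl, Hsd17b7, Ebp, Sc5d and Dhcr7). Each had exactly 1 transcript cluster among the 22104 of the deposited table, which stood for 19480 named genes. RNA was profiled on 12 whole-transcript arrays of the 3T3-L1 line, mouse preadipocytes that fill with lipid and become adipocytes when given a hormone cocktail. Cells were treated from the start of differentiation and RNA was taken at day 8, with insulin at 5 µg/ml in the maintenance medium. The study asked what the plant omega-3 fatty acid alpha-linolenic acid (ALA) and an inhibitor of the delta-6-desaturase (D6D), the first enzyme that acts on ALA, did to these cells.

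The 4 treatments were compared, each with 3 arrays, from cells of passage 6, 7 and 8. Cells labelled ALA plus inhibitor received 50 µM ALA and 5 µM D6D inhibitor, cells labelled ALA received 50 µM ALA, cells labelled inhibitor received 5 µM D6D inhibitor, and control cells received ethanol and DMSO. All groups shared the differentiation cocktail and insulin. The labels give albumin (2%, free of fatty acids) for the ALA medium and do not give it for the arms without ALA, so ALA and albumin cannot be told apart where the arms differ in it. A vehicle is named for control alone, so an agent and a difference in ethanol or DMSO cannot be told apart either where the arms were not matched in them. All cultures came from 1 cell line, and p-values measure the spread between its cultures.

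Cholesterol synthesis starts with the mevalonate steps, which make isoprenoid units for many products, and the enzymes from squalene synthase onward carry those units into sterols alone. The enzymes sit mostly in the endoplasmic reticulum, where the sensor protein SCAP and its anchors, the INSIG proteins, control the SREBP transcription factors. When sterols are scarce, SREBP-2 moves to the nucleus and raises transcription of the whole pathway. In adipocytes much of the cell's free cholesterol lies around the lipid droplet.

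The promoters of these genes are known for short elements that SREBP factors, NF-Y (which binds the CCAAT box) and Sp1 (which binds GC boxes) use together. They are shown as background, and whether they had a part in the differences below was not tested. The RefSeq promoter table, on build GRCm38.p6, held 8 of the 10 genes. In each of the stretches below, the 120 bases before the annotated start are written 5′ to 3′ on the gene's strand, and capitals mark matches to the motifs searched. Lss lies at chr10:76531485-76531604 on the plus strand, Cyp51 at chr5:4104698-4104817 on the minus strand, Msmo1 at chr8:64733579-64733698 on the minus strand and Nsdhl at chrX:72918401-72918520 on the plus strand. Hsd17b7 lies at chr1:169969206-169969325 on the minus strand, Ebp at chrX:8193513-8193632 on the minus strand, Sc5d at chr9:42264301-42264420 on the minus strand and Dhcr7 at chr7:143830094-143830213 on the plus strand. Of the 3 Dhcr7 starts in the table, the one with the most matches is printed.
Lss: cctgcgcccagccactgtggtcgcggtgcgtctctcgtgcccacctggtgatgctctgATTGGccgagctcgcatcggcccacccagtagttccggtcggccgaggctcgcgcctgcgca
Cyp51: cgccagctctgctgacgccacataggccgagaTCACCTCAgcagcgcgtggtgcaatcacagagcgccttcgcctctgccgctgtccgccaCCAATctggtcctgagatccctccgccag
Msmo1: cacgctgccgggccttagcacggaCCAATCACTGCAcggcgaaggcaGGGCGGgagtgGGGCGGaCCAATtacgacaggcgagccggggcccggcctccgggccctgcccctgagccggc
Nsdhl: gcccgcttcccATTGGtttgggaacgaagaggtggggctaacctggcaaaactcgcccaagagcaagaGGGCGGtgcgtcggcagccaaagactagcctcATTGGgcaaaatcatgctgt
Hsd17b7: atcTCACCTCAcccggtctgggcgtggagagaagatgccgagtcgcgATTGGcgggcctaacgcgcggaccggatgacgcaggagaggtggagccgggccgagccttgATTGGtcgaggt
Ebp: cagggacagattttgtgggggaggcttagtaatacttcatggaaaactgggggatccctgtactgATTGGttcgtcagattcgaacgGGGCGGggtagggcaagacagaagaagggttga
Sc5d: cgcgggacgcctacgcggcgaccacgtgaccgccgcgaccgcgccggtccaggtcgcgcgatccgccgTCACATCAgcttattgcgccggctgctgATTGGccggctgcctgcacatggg
Dhcr7: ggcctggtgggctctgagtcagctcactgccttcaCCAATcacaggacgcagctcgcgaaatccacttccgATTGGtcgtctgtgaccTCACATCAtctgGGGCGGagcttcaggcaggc

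The motifs were searched on both strands in the 250 bases before 32851 annotated starts of 27025 genes. The CCAAT box (CCAAT) was found in all 8 of these genes and in 37.49% of all genes. The GC box (GGGCGG) was also found in all 8, against 35.36% of all genes. The sterol regulatory element, written as TCACNCCAC, was found in 0 of the 8 and in 1.22% of all genes. A looser form, TCACNNCA, added after the stricter one gave no match, was found in 5 of the 8 (Cyp51, Dhcr7, Hsd17b7, Msmo1 and Sc5d) and in 12.98% of all genes. In Msmo1 the last base of a CCAAT match is the first base of a looser element. These matches describe the letters in the window and were not tested as sites.

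The values are log2 signals, so a difference of 1 is a doubling, and signals of different genes come from different probes and are not set against each other. Array medians lay between 6.14 and 6.27, and all 10 enzymes lay above the median of every array. One array differed from the rest, that of ALA at passage 7. Over all clusters it correlated with the others at 0.976 to 0.987, against 0.989 to 0.994 among the other 11. For comparisons with ALA the enzymes' median, and any single enzyme difference that moved by more than 1.5 times, are therefore also given without it. For other genes no fit without it is given, and its values are shown where it bore strongly on a difference. All 9 measured adipocyte markers lay above the array median on every array. Macrophage and endothelial markers (5 measured of each) lay above it on 0 arrays, and 7 of 8 preadipocyte and fibroblast markers lay above it on every array.

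The order of the 4 treatments was similar along the pathway. The mean was lowest with ALA for 10 of the 10 enzymes and highest with the inhibitor for 9. The order ALA, ALA plus inhibitor, control, inhibitor, from low to high, held for 7. The mean over the 10 enzymes was 10.55 ± 0.10 with ALA plus inhibitor, 10.31 ± 0.08 with ALA, 10.71 ± 0.01 with inhibitor and 10.57 ± 0.05 in control (log2, SD, n = 3 each). Of the 30 neighbouring pairs in these orders, 18 overlapped. How many of all clusters showed these orders or such overlaps was not counted. The comparisons that follow share arrays with one another, so their directions are not independent. Fewer cells of a type and less RNA per cell cannot be told apart in such bulk RNA.

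The first enzymes make and close the carbon chain. Fdft1, squalene synthase, measured 11.44, 11.35 and 11.36 with ALA plus inhibitor, 11.32, 11.23 and 11.22 with ALA, 11.53, 11.53 and 11.55 with inhibitor and 11.39, 11.34 and 11.45 in control, at passages 6, 7 and 8. Its ALA arrays were the 3 lowest and its inhibitor arrays the 3 highest, and the other two groups overlapped. Sqle, squalene epoxidase, which adds the first oxygen and is a rate-limiting step, measured 10.86, 10.62 and 10.41 with ALA plus inhibitor, 10.54, 10.53 and 10.39 with ALA, 10.65, 10.83 and 10.69 with inhibitor and 10.78, 10.76 and 10.82 in control. Sqle was the exception among the 10: its highest mean was in control, and its ALA plus inhibitor arrays spread from among the lowest to the highest of all 12. Lss, lanosterol synthase, which folds the oxidised chain into the first sterol, measured 11.13, 10.98 and 11.01 with ALA plus inhibitor, 10.84, 10.60 and 10.73 with ALA, 11.14, 11.28 and 11.24 with inhibitor and 10.81, 10.89 and 10.94 in control. All 6 Lss arrays with the inhibitor lay above all 6 without it, whether or not ALA was present.

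The middle enzymes strip methyl groups from lanosterol. Cyp51, the cytochrome P450 that removes the first methyl group, measured 10.36, 10.10 and 9.64 with ALA plus inhibitor, 9.90, 9.47 and 9.52 with ALA, 10.43, 10.37 and 10.11 with inhibitor and 10.26, 10.11 and 9.98 in control. In every treatment the passage 6 array was the highest for Cyp51, and its ALA arrays lay below its control arrays. Msmo1, the oxygenase that starts removal of the next methyl groups, measured 10.02, 9.94 and 10.03 with ALA plus inhibitor, 9.92, 9.68 and 9.82 with ALA, 10.09, 10.11 and 10.06 with inhibitor and 10.11, 9.88 and 10.05 in control. The ALA and control arrays of Msmo1 overlapped at the control array of passage 7. Nsdhl, the dehydrogenase of the same cycle, measured 11.70, 11.68 and 11.76 with ALA plus inhibitor, 11.54, 11.65 and 11.57 with ALA, 11.73, 11.83 and 11.84 with inhibitor and 11.79, 11.75 and 11.77 in control. Its 3 ALA arrays were the lowest of the 12. Hsd17b7, the keto reductase that closes the cycle, measured 10.15, 9.88 and 10.04 with ALA plus inhibitor, 9.81, 9.67 and 9.85 with ALA, 10.19, 10.16 and 10.29 with inhibitor and 10.09, 9.92 and 10.07 in control. Its ALA arrays were the 3 lowest and its inhibitor arrays the 3 highest.

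The last enzymes shift, add and remove double bonds. Ebp, the sterol isomerase, measured 9.20, 8.89 and 8.93 with ALA plus inhibitor, 8.72, 8.25 and 8.78 with ALA, 9.13, 8.96 and 9.16 with inhibitor and 8.86, 8.78 and 8.88 in control. All 6 Ebp arrays with the inhibitor lay above all 6 without it, and the ALA array of passage 7 was the lowest. Sc5d, the desaturase that follows, measured 11.40, 11.25 and 11.22 with ALA plus inhibitor, 11.06, 10.86 and 10.96 with ALA, 11.50, 11.51 and 11.46 with inhibitor and 11.44, 11.30 and 11.34 in control. Its ALA arrays were the 3 lowest of the 12 and its inhibitor arrays the 3 highest. Dhcr7, the reductase that makes cholesterol from dehydrocholesterol, measured 10.44, 10.27 and 10.57 with ALA plus inhibitor, 10.20, 10.27 and 10.51 with ALA, 10.62, 10.47 and 10.85 with inhibitor and 10.49, 10.32 and 10.61 in control. Every pair of Dhcr7 groups overlapped, and in every treatment its passage 8 array was the highest.

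With ALA, all 10 enzymes measured lower than in control, though none passed the test. Sc5d averaged 10.96 ± 0.10 with ALA and 11.36 ± 0.07 in control (SD, n = 3 each), a log2 difference of -0.40 (SE 0.11), or 0.759 times the control level. The difference was -0.49 (SE 0.18) for Cyp51, -0.30 (SE 0.12) for Sqle, -0.26 for Ebp and -0.25 for Hsd17b7. It lay between -0.21 and -0.14 for Msmo1, Nsdhl, Lss, Dhcr7 and Fdft1. The median over the enzymes was -0.23, against 0.01 over all clusters, of which 52.2% were higher with ALA. Lower values stood in 29 of the 30 single-passage differences, with medians of -0.24, -0.24 and -0.22 in passages 6, 7 and 8. The exception was Lss at passage 6, 0.03 higher. Without the ALA array of passage 7 the median was -0.17, and the difference was -0.09 for Ebp and -0.09 for Lss (-0.15 with it).

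Arrays of ALA and control did not overlap, with ALA lower, for 7 of the 10 (all but Lss, Msmo1 and Dhcr7), a pattern that 2.91% of all clusters showed. In limma's test over all clusters 0 enzymes and 0 clusters (0%) reached an adjusted p under 0.05, and every enzyme had an adjusted p of 0.9998. An unadjusted p under 0.05 was found for 753 clusters, 4 of them among these enzymes (Sc5d, Cyp51, Sqle and Hsd17b7). At the unadjusted p under 0.01 that the series design names, Sc5d alone of the 10 stood (limma unadjusted p = 0.002423), beside 116 clusters or 0.525% of the table. Both cluster counts lay below what such thresholds give where nothing differs and arrays deviate independently. Passage was not in this model, and with it as a replicate block 186 clusters and 2 enzymes had an unadjusted p under 0.01. Sc5d no longer had an unadjusted p under 0.01 without the control array of passage 6, without any 1 passage or with only the ALA and control arrays fitted. There were 2 such enzymes without the ALA array of passage 6 or the ALA plus inhibitor array of passage 8.

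The inhibitor alone gave higher values than control for 9 of the 10 enzymes, Sqle being the exception, and none passed the test. Lss averaged 11.22 ± 0.07 with inhibitor and 10.88 ± 0.07 in control (SD, n = 3 each), a log2 difference of 0.34 (SE 0.11), or 1.27 times the control level. The differences were 0.24 for Ebp, 0.19 for Hsd17b7, 0.18 for Cyp51, 0.17 for Dhcr7, 0.14 for Fdft1 and 0.13 for Sc5d. They were 0.07 for Msmo1, 0.03 for Nsdhl and -0.06 for Sqle, whose 95% interval reached from -0.33 to 0.21. The median over the enzymes was 0.16, against -0.0032 over all clusters, of which 49.2% were higher. Higher values stood in 27 of the 30 single-passage differences, with medians of 0.12, 0.20 and 0.12 in passages 6, 7 and 8.

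The groups did not overlap, with inhibitor higher, for Fdft1, Lss, Hsd17b7, Ebp and Sc5d, or 5 of the 10, against 5.88% of all clusters. By limma 0 enzymes and 0 clusters (0%) passed an adjusted p of 0.05, with 0.998 for all 10, while 955 clusters had an unadjusted p under 0.05. Lss alone of the 10 had an unadjusted p under 0.01 (limma, 0.007372), beside 189 clusters or 0.855%. It lost that place without any 1 of 8 arrays (all but those of ALA and of ALA plus inhibitor at passage 6, the inhibitor array of passage 6 and the ALA array of passage 7), without any 1 passage and with only the arrays compared. This comparison and that of ALA with control share the same 3 control arrays.

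In cells that had ALA, adding the inhibitor gave higher values for all 10 enzymes, in 30 of the 30 single-passage differences, and none passed the test. Ebp averaged 9.01 ± 0.16 with ALA plus inhibitor and 8.58 ± 0.29 with ALA (SD, n = 3 each), a log2 difference of 0.42 (SE 0.15), or 1.34 times the level with ALA. Without the ALA array of passage 7, the lowest Ebp array, that difference was 0.26. Sc5d differed by 0.33 (SE 0.11), from means of 11.29 ± 0.10 with ALA plus inhibitor and 10.96 ± 0.10 with ALA. The differences were 0.40 for Cyp51, 0.31 for Lss, 0.25 for Hsd17b7 and 0.19 for Msmo1. They were 0.14 for Sqle, 0.13 for Fdft1, 0.13 for Nsdhl and 0.10 for Dhcr7. The median was 0.22, against -0.02 over all clusters, of which 46.6% were higher. The medians were 0.30, 0.24 and 0.17 in passages 6, 7 and 8, and 0.18 without the ALA array of passage 7.

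Arrays with ALA plus inhibitor all lay above those with ALA for 7 of the 10 (all but Sqle, Cyp51 and Dhcr7), against 4.75% of all clusters. In limma's test 0 enzymes and 0 clusters (0%) passed an adjusted p of 0.05. The lowest adjusted p among the 10 was 0.653, and 1607 clusters had an unadjusted p under 0.05. At an unadjusted p under 0.01 stood Sc5d alone of the 10 (limma, 0.008654), with 325 clusters or 1.47%. With passage as a replicate block, since arrays of these groups deviated together by passage, Cyp51, Ebp and Sc5d stood there, with 561 clusters, and 0 clusters passed the adjusted test. Unblocked, 0 of the 10 stood there without the ALA array of passage 7. The same held without any 1 passage and without 8 other single arrays, the exceptions being those of ALA and of ALA plus inhibitor at passage 8, and the ALA array of passage 6, without which there were 2.

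Averaged over cells with and without ALA (6 arrays against 6), the inhibitor gave higher values for all 10 enzymes, most for Ebp and Lss, and none passed the adjusted test. The log2 difference was 0.33 (SE 0.10) for Ebp and 0.33 (SE 0.08) for Lss, 0.29 for Cyp51, 0.23 (SE 0.07) for Sc5d and 0.22 (SE 0.08) for Hsd17b7. It was 0.14 for Fdft1, 0.14 for Dhcr7, 0.13 for Msmo1 and 0.08 for Nsdhl. Sqle differed by 0.04, with a 95% interval from -0.15 to 0.23. The median was 0.18, against -0.01 over all clusters, of which 46.7% were higher. Lss and Ebp were the members whose 6 inhibitor arrays all lay above the other 6, as was so for 0.231% of all clusters. The members' medians were 0.19, 0.23 and 0.14 in passages 6, 7 and 8, and 0.16 without the ALA array of passage 7.

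In limma's test of this average 0 clusters (0%) passed an adjusted p of 0.05, the lowest adjusted p among the 10 was 0.4962, and 1936 clusters had an unadjusted p under 0.05. At an unadjusted p under 0.01 were 420 clusters, or 1.9%, and 3 enzymes: Lss (0.0008984), Ebp (0.007125) and Sc5d (0.009368). The count of 3 became 1 without any one of 6 arrays (ALA plus inhibitor or inhibitor at passage 6, ALA or control at passage 7, control or inhibitor at passage 8) or without passage 6, and 0 without passage 7 or passage 8. All 8 measured preadipocyte and fibroblast markers were lower with the inhibitor, with a median of -0.22. Their mean level ranged from 9.41 to 9.88 with ALA plus inhibitor, 9.64 to 10.09 with ALA, 9.39 to 9.88 with inhibitor and 9.65 to 10.02 in control. Adipocyte markers were lower for 7 of 9, with a median of -0.09, at 11.53 to 11.64 with ALA plus inhibitor, 11.54 to 11.68 with ALA, 11.47 to 11.66 with inhibitor and 11.57 to 11.72 in control. The part of these marker levels in the result was not tested.

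Averaged over cells with and without the inhibitor, ALA gave lower values for all 10 enzymes, most for Cyp51 and Sc5d, and none passed the adjusted test. The log2 difference was -0.38 (SE 0.13) for Cyp51, -0.30 (SE 0.07) for Sc5d, -0.22 (SE 0.08) for Hsd17b7 and -0.20 (SE 0.09) for Sqle. It lay between -0.18 and -0.13 for Dhcr7, Ebp, Lss, Msmo1, Fdft1 and Nsdhl. The median was -0.17, against 0.001 over all clusters, of which 50.4% were higher. The medians were -0.13, -0.25 and -0.22 in passages 6, 7 and 8, and -0.16 without the ALA array of passage 7, where Ebp differed by -0.09 (-0.17 with it). For 0 of the 10 did the 6 arrays with ALA all lie below the other 6, which 0.0814% of clusters did. In limma's test 0 clusters (0%) passed an adjusted p of 0.05, the enzymes had an adjusted p of 0.9996, and 781 clusters had an unadjusted p under 0.05. Sc5d alone of the 10 had an unadjusted p under 0.01 (limma, 0.001558), beside 127 clusters or 0.575%. There were 2 such enzymes without the ALA or ALA plus inhibitor array of passage 6, the inhibitor array of passage 8 or the whole of passage 6, and 0 without passage 7 or passage 8. Adipocyte markers were higher for 5 and lower for 4 of 9 in this comparison, and preadipocyte and fibroblast markers higher for 6 and lower for 2 of 8. Their part in the result was not tested.

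**Figure D1:**
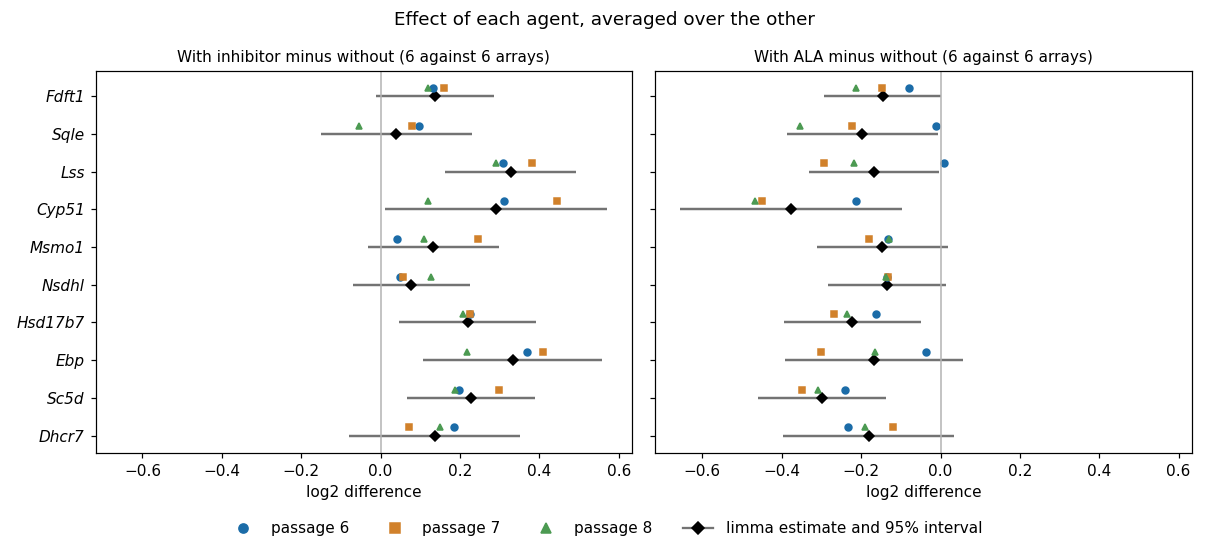
Log2 difference (x axis) of each enzyme for arrays with the inhibitor minus those without (left) and with ALA minus without (right), 6 arrays against 6. Coloured points are single passages and black diamonds are limma's estimates with 95% intervals. All 10 estimates lie above 0 on the left and below 0 on the right, with Lss and Ebp farthest on the left panel and Cyp51 and Sc5d on the right.

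Within cells that had the inhibitor, ALA gave lower values for all 10 enzymes. The log2 differences, ALA plus inhibitor minus inhibitor, reached from -0.27 for Cyp51 to -0.08 for Ebp, with -0.22 for Dhcr7, -0.20 for Sc5d, -0.19 for Hsd17b7 and -0.18 for Lss. The median was -0.17, and 48.1% of all clusters were higher. The medians were -0.06, -0.20 and -0.23 in passages 6, 7 and 8, and lower values stood in 28 of the 30 single-passage differences. Sqle and Ebp were higher at passage 6. The groups did not overlap, with ALA plus inhibitor lower, for Fdft1, Lss, Msmo1, Hsd17b7 and Sc5d, or 5 of the 10, against 4.91% of all clusters. In limma's test 0 enzymes and 0 clusters (0%) passed, the enzymes had an adjusted p of 0.9999, and 786 clusters had an unadjusted p under 0.05. At an unadjusted p under 0.01 were 161 clusters, or 0.728%, and 0 enzymes.

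Between cells with both agents and control cells, 8 enzymes measured lower and 2 higher, and the arrays overlapped for 8 of the 10. Lss was 0.16 higher with ALA plus inhibitor (log2, 95% interval -0.07 to 0.39) and Ebp 0.16 higher (-0.15 to 0.48). These were the enzymes whose arrays with both agents lay wholly above control, as did 1064 of all 22104 clusters. Wholly below control lay 0 of the 10 enzymes and 1205 clusters. The other differences lay between -0.16 for Sqle (-0.43 to 0.11) and -0.0029 for Hsd17b7 (-0.25 to 0.24). The median was -0.03, against -0.01 over all clusters. For Cyp51 the interval reached from -0.48 to 0.31. The adjusted p from limma was 0.9997 for all 10, 0 clusters (0%) passed, and 946 clusters had an unadjusted p under 0.05. At an unadjusted p under 0.01 were 183 clusters, or 0.828%, and 0 enzymes, against 333 clusters and 0 enzymes with passage as a replicate block. The count was 287 clusters when the passage 7 array of ALA, which bears on this comparison through the shared spread, was left out.

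Whether the inhibitor's difference depended on ALA was asked by the interaction, the difference in cells with ALA minus that in cells without. It was above 0 for 7 enzymes and below 0 for 3 (Fdft1, Lss and Dhcr7), with a median of 0.11. That median was 0.03 without the ALA array of passage 7, and 0.21, -0.0018 and 0.01 within passages 6, 7 and 8. The estimates furthest from 0 were 0.22 for Cyp51 (95% interval -0.34 to 0.77), 0.21 for Sqle (-0.17 to 0.59), 0.20 for Sc5d (-0.13 to 0.52) and 0.18 for Ebp (-0.27 to 0.63). For Lss the interaction was -0.03 (-0.36 to 0.30). Without the ALA array of passage 7 it was 0.14 for Cyp51, 0.05 for Msmo1 (0.12 with it), 0.01 for Ebp, 0.0087 for Hsd17b7 (0.06 with it), -0.03 for Fdft1 (-0.01 with it) and -0.09 for Lss. The adjusted p from limma was 0.9999 for all 10, 0 clusters (0%) passed, and 755 clusters had an unadjusted p under 0.05. At an unadjusted p under 0.01 were 141 clusters, or 0.638%, and 0 enzymes.

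The enzymes can be set beside the whole table in the averaged comparisons. For the inhibitor, 9.81% of all clusters had a log2 difference at or above the enzymes' median of 0.18. For ALA, 6.64% lay at or below the enzymes' median of -0.17. Brighter clusters leaned the same way as the enzymes: of the 3676 clusters with a mean signal no lower than the lowest mean among the 10, 58% were higher with the inhibitor and 37.6% with ALA, with medians of 0.02 and -0.02. The part of this leaning in the enzymes' differences was not tested.

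**Figure D2:**
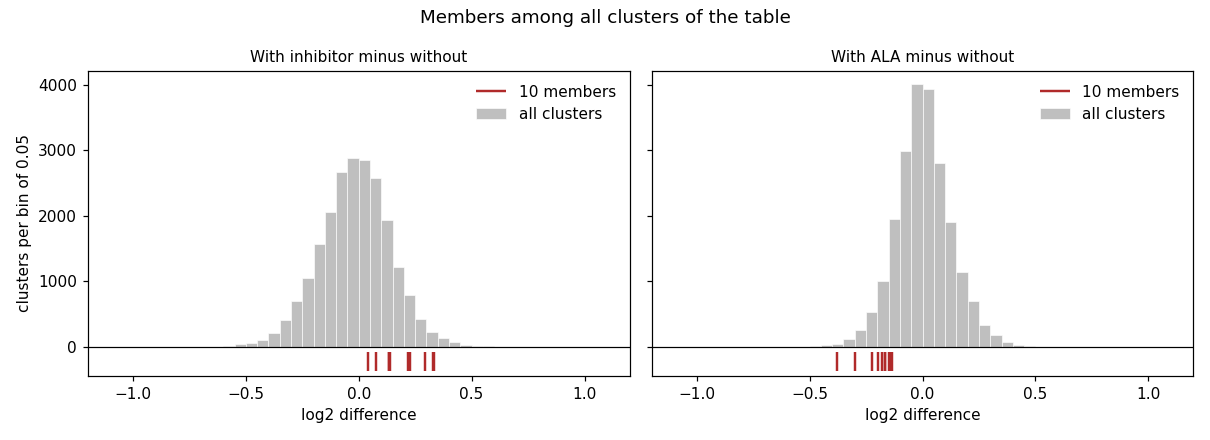
Number of clusters (y axis, bins of 0.05) by log2 difference (x axis) for the inhibitor (left) and ALA (right), averaged over the other agent, with the 10 enzymes as red marks. The enzymes spread from 0.04 to 0.33 on the left and from -0.38 to -0.13 on the right, inside the range of all clusters.

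Cyp51, Sc5d and Dhcr7 differed between passage 8 and passage 6 in one direction in all 4 treatments, and none passed the test. Cyp51 was 0.42 lower at passage 8 than at passage 6 (log2, SE 0.10, limma with treatment in the model, adjusted p = 0.08123), by -0.72 with ALA plus inhibitor, -0.38 with ALA, -0.31 with inhibitor and -0.28 in control. Dhcr7 was 0.20 higher at passage 8 (SE 0.08, adjusted p = 0.2858), by 0.13 with ALA plus inhibitor, 0.31 with ALA, 0.23 with inhibitor and 0.12 in control. Sqle differed by -0.13 and Sc5d by -0.11, and the other 6 lay within 0.05 of 0. Over all clusters 423, or 1.91%, passed an adjusted p of 0.05 and 1316, or 5.95%, had an unadjusted p under 0.01. Of the 10 enzymes 0 were among the first and Cyp51 alone among the second (0.002331), with an unadjusted p of 0.01187 without the ALA plus inhibitor array of passage 6. Cyp51 passed the adjusted test without the ALA array of passage 7 (adjusted p = 0.0498), with array weights (0.046), with the variance set by intensity (0.004225) and without the dimmest 30% of clusters (0.04161). Over all alternatives its adjusted p ranged from 0.004225 to 0.2344. Preadipocyte and fibroblast markers were higher at passage 8 for 8 of 8 and adipocyte markers for 8 of 9.

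The signals of the enzymes went together over the 12 arrays, which share the cell line and the normalization. All 45 pairs of enzymes had a Pearson correlation above 0, with a median of 0.75, from 0.13 for Sqle with Dhcr7 to 0.93 for Fdft1 with Hsd17b7. Against the mean of the other 9, the correlation was 0.97 for Sc5d, 0.95 for Hsd17b7, 0.95 for Fdft1, 0.90 for Msmo1, 0.86 for Lss and 0.85 for Ebp. It was lower for Cyp51 (0.79), Nsdhl (0.73), Sqle (0.63) and Dhcr7 (0.55). The spread from the lowest to the highest array was 0.95 for Cyp51 and 0.94 for Ebp, and 0.33 for Fdft1 and 0.30 for Nsdhl, on the log2 scale. These correlations describe 12 arrays in 4 treatments and carry no test. Treatment was not removed from them or from those that follow, so they hold the order of treatments given above. Pairs among other genes were not computed for comparison.

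Among the 19470 other named genes, the one most like the mean of the 10 enzymes over the 12 arrays was Fads2, the gene of the inhibited desaturase, with a correlation of 0.94. Fads2 measured 12.65, 12.62 and 12.64 with ALA plus inhibitor, 12.39, 12.35 and 12.39 with ALA, 12.77, 12.80 and 12.73 with inhibitor and 12.61, 12.58 and 12.66 in control. Its ALA arrays were the 3 lowest and its inhibitor arrays the 3 highest, as for Fdft1, Hsd17b7 and Sc5d. Averaged over the other agent, Fads2 differed by 0.20 with the inhibitor and by -0.19 with ALA (limma adjusted p = 0.4962 and 0.9996). Slc16a4 (0.93), Ssbp2 (0.91), Stk38l (0.90), Fads1 (0.89), Uvrag (0.89), Trp53inp1 (0.89), Elovl5 (0.89), Snrnp48 (0.88) and Fyttd1 (0.88) followed. Fads1 encodes the delta-5-desaturase and Elovl5 a fatty acid elongase. With passage removed, 5 of these 10 stayed among the first 10 (Fads2, Trp53inp1, Elovl5, Fads1 and Ssbp2), and Fads2 was again first, at 0.97.

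The steps before squalene lay on the same side of 0 as the enzymes in both averaged comparisons, which share arrays with each other. Of 9 listed mevalonate and isoprenoid genes 7 were measured, and all 7 were higher with the inhibitor averaged over ALA, with a median of 0.25. Idi1, the isomerase of the isoprenoid unit, differed by 0.59 (limma unadjusted p = 0.001974, adjusted p = 0.4962), Pmvk, phosphomevalonate kinase, by 0.37 and Mvd, the decarboxylase that makes that unit, by 0.25. With ALA all 7 were lower, with a median of -0.17, and Pmvk differed by -0.25, Mvd by -0.20 and Ggps1, which makes geranylgeranyl diphosphate, by -0.17. Between ALA plus inhibitor and control the medians of the mevalonate and isoprenoid genes and of the enzymes had opposite signs. All 7 mevalonate and isoprenoid genes were higher, with a median of 0.05, whereas 8 of the 10 enzymes were lower, with a median of -0.03. The enzymes' median lay near 0 there, from -0.0735 to 0.0102 with arrays or passages left out. Fdft1, Msmo1 and Hsd17b7 lay above 0 with median centring. The difference between the lists was not tested. Of the sterol sensing and SREBP genes 6 of 10 were measured. With all arrays in, all 6 were higher with the inhibitor, with a median of 0.12, and lower with ALA, with a median of -0.05. With ALA, Insig2 measured 8.14, 7.16 and 7.92 and Scap 9.17, 8.81 and 9.25 at passages 6, 7 and 8. Apart from passage 7 these values lay above the control means, 7.86 for Insig2 and 9.10 for Scap. The direction of both genes with ALA thus hangs on the passage 7 array, as does that of Insig2 with the inhibitor. Insig1, an anchor of the sterol sensor, differed by 0.27 with the inhibitor and -0.18 with ALA, and Stard4, a sterol carrier, by 0.29 and -0.28. Srebf2, which encodes the SREBP-2 factor, differed by 0.0035 and -0.06. With ALA, Srebf2 measured 11.06, 11.20 and 10.83 at passages 6, 7 and 8. Apart from passage 7 these values lay below the control mean, 11.09. The passage 7 array thus drew both Srebf2 differences towards 0.

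The partners of the late steps were on both sides of 0 in both averaged comparisons. Of 8 listed, 5 were measured. With all arrays in, 4 were higher and 1 lower with the inhibitor (median 0.04), and 2 higher and 3 lower with ALA (median -0.09). Erg28, known from yeast as a scaffold of the demethylation complex, differed by 0.14 with the inhibitor and -0.10 with ALA. Cyb5r3, the reductase of cytochrome b5, differed by -0.08 with the inhibitor, and Lbr, a sterol reductase of the nuclear envelope, by -0.09 with ALA. Cyb5b, a cytochrome b5, differed by 0.08 with the inhibitor and -0.13 with ALA. With ALA, Cyb5b measured 11.14, 10.66 and 11.25 at passages 6, 7 and 8. Apart from passage 7 these values lay above its ALA plus inhibitor mean, 11.09. The direction of Cyb5b with the inhibitor thus hangs on the passage 7 array, and its difference with ALA leans on it. By limma 0 genes of these 3 lists passed an adjusted p of 0.05 in the averaged comparisons. The other listed genes were not analysed here.

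**Figure D3:**
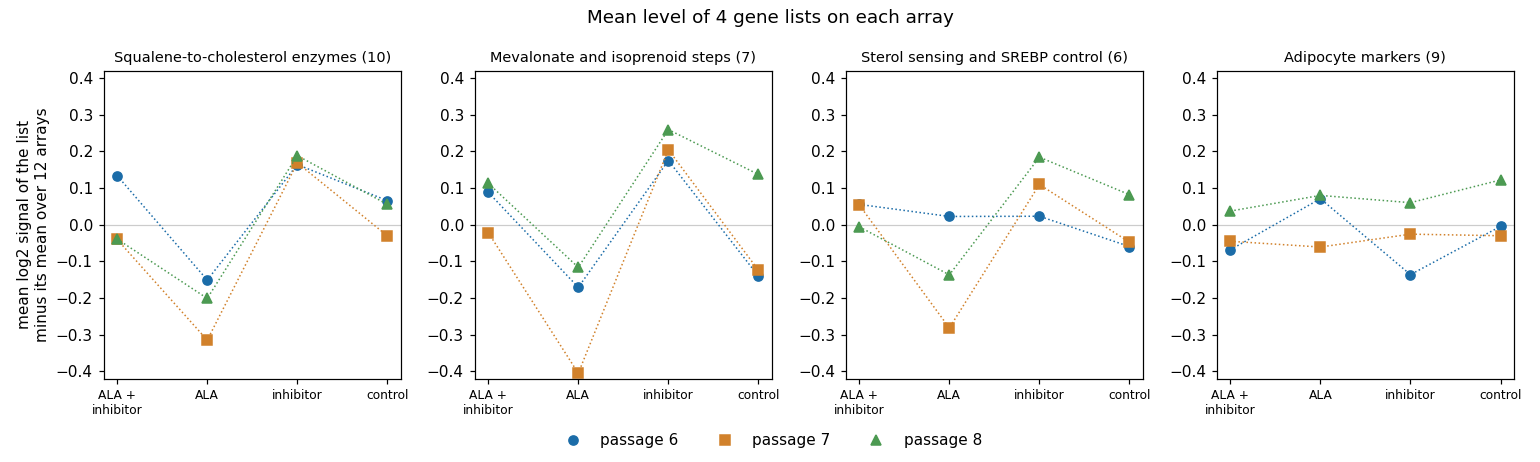
Mean log2 signal of 4 gene lists on each array minus the list's mean over 12 arrays (y axis), by treatment (x axis), with a point and dotted line per passage. The 10 enzymes run from -0.31 (ALA, passage 7) to 0.19 (inhibitor, passage 8), with the lowest point of each passage at ALA and the highest at inhibitor, an order that the 9 adipocyte markers show at passage 7 and do not show at passages 6 and 8.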

How the data were processed

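Transcripts were measured on 12 arrays, 1 per treatment and passage, grouped by the treatment in their labels, from 100 ng of RNA with an integrity number above 8.9 per the labels' protocols. The deposited values are log2 signals, 1 per cluster and array, and per the submitters' processing notes the authors made them with RMA. This method subtracts background, puts arrays on one distribution and combines the probes of a cluster, its software and version are not given in the sources used here, and it compresses differences between dim signals. Symbols came from GEO's platform annotation (19509 clusters named, 2595 not).

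No filter or further scaling was applied. In R 4.3.3 with limma 3.58.1, a single linear model held the 4 treatments and took in all 12 arrays, leaving 8 residual degrees of freedom (4.66 prior). It was followed by two-sided eBayes tests, with Benjamini-Hochberg adjustment over all clusters. A call was an adjusted p-value under 0.05, and the unadjusted p-value under 0.01 of the series design is given beside it. Where nothing differs and arrays deviate independently, the share of clusters under an unadjusted threshold is expected to match that threshold. A lower share holds no excess under this model, which left out passage. With passage as a replicate block, clusters at an unadjusted p under 0.01 numbered 186 (116 without it) for ALA against control. They numbered 322 (189) for inhibitor against control and 750 (420) for the averaged inhibitor. The part of passage in low shares was not tested. Averaged comparisons took the mean of the difference with and without the other agent. The fits were tested on simulated data. The number of arrays limits the precision. Alternatives were passage as a replicate block, array weights, an intensity trend, quantile normalization, median centring, dropping the dimmest 30% of clusters, fitting only the arrays compared, and leaving out each array or passage.

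Passage numbers were checked for pairing by correlating deviations from group means. The 18 same-passage pairs had r from -0.05 to 0.46, and 13 were above 0.1. The 36 other pairs had r from -0.44 to 0.21. All 3 pairs were above 0.1 for ALA plus inhibitor with ALA and with control, and blocked values stand beside those results where they moved. Named genes were the 10 enzymes, up to 3 genes with the smallest unadjusted p of each other pathway list, Fads2 and the 10 genes most correlated with the enzymes' mean. The enzymes and lists were chosen with earlier results of these data known. Promoter sequences are RefSeq's.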

Additional observations from a re-analysis of the deposited data

How the results depend on the processing

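The enzymes kept their direction in all 220 alternative values (10 enzymes, 22 settings) of ALA against control and of ALA plus inhibitor against ALA, and in 210 of 210 for ALA averaged over inhibitor. They kept it in 209 of 210 for inhibitor averaged over ALA, 219 of 220 for inhibitor against control and 219 of 220 for ALA plus inhibitor against inhibitor. The exceptions, with arrays or passages left out, ranged from -0.0175 to 0.0942 for Sqle, from -7e-04 to 0.12 for Msmo1 and from -0.24 to 0.0163 for Sqle, in that order. For ALA plus inhibitor against control the direction held in 198 of 220 values, and for the interaction in 196 of 210. A passage block, an intensity trend, dropping dim clusters and fitting only the arrays compared leave a log2 difference unchanged in this design. So does leaving out an array outside the groups compared, and agreement in such settings was fixed in advance. Over the alternatives the lowest adjusted p of an enzyme was 0.192 for the averaged inhibitor, 0.861 for averaged ALA, 0.736 for ALA against control, 0.41 for inhibitor against control and 0.337 for ALA plus inhibitor against ALA.

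Passage as a replicate block raised the clusters called for the averaged inhibitor to 8, of which 0 were enzymes, and those at an unadjusted p under 0.01 to 750 (420 without it), with 5 enzymes. For averaged ALA the block gave 216 such clusters (127 without it) and 3 enzymes, for ALA against control 186 (116) and 2, and for inhibitor against control 322 (189). Leaving out arrays gave 0 to 1 called clusters for the averaged inhibitor (1 without the ALA plus inhibitor array of passage 7), and medians of the enzymes from -0.24 to -0.12 for ALA plus inhibitor against inhibitor and from 0.0337 to 0.15 for the interaction. Without the ALA array of passage 6, clusters at an unadjusted p under 0.01 numbered 725 for the averaged inhibitor, 624 for ALA plus inhibitor against ALA (325 with it), 281 for ALA against control and 213 for averaged ALA. Without the ALA plus inhibitor array of passage 6 they numbered 265 for the averaged inhibitor and 185 for ALA plus inhibitor against ALA. Without the ALA array of passage 7 they numbered 186 for ALA plus inhibitor against ALA and 293 for inhibitor against control, and without that of passage 8, 188 for ALA against control. Over the alternatives that keep all the arrays compared, such clusters numbered 51 to 186 for ALA against control, 110 to 438 for inhibitor against control, 188 to 561 for ALA plus inhibitor against ALA, 76 to 370 for ALA plus inhibitor against inhibitor, 102 to 423 for ALA plus inhibitor against control, 57 to 280 for the interaction, 344 to 750 for the averaged inhibitor and 72 to 216 for averaged ALA. For ALA plus inhibitor against ALA, quantile normalization and dropping the dimmest 30% each gave 2 enzymes, and array weights and only the arrays compared gave 0. Array weights gave 2 for averaged ALA (197 clusters). The intensity trend gave 5 there, and 3 each for ALA against control (77 clusters) and ALA plus inhibitor against ALA.

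For ALA plus inhibitor against control, where differences were near 0, quantile normalization gave 0.001 for Msmo1 and 0.006 for Hsd17b7, and median centring gave 0.0173 for Fdft1, 0.0119 for Msmo1 and 0.0239 for Hsd17b7. With arrays or passages left out, values ranged from -0.0805 to 0.0336 for Msmo1, -0.0674 to 0.0709 for Hsd17b7, -0.0411 to 0.0324 for Fdft1, -0.12 to 0.0324 for Dhcr7 and -0.25 to 0.11 for Cyp51. In the interaction they ranged from -0.0426 to 0.0187 for Fdft1, -0.09 to 0.0283 for Lss, -0.0284 to 0.13 for Hsd17b7 and -0.16 to 0.0336 for Dhcr7. For passage 8 against passage 6, 1 enzyme (Cyp51) was called with array weights, with the intensity trend, without the dimmest 30% of clusters and without the ALA array of passage 7 (0 to 1 over arrays left out). Clusters called numbered 1163 with the trend, 719 without the dimmest, 176 with only the arrays compared and 140 to 593 over arrays left out, against 423. Lss gave -0.0112 with array weights and -0.0022 with quantile normalization, Hsd17b7 -0.0026 and -0.0282, and leaving out arrays ranged from -0.0459 to 0.0516 for Lss, -0.0351 to 0.0397 for Hsd17b7 and -0.11 to 0.0259 for Ebp. The causes of these shifts were not tested. Array data carry no read depth, and 3 arrays per group limit what could be called.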
